A study of Mus musculus with 24 samples.

Results

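The glutathione S-transferases (GSTs) described here are 10 genes chosen by symbol, Gsta2, Gsta4, Gstm1, Gstm2, Gstm6, Gstp1, Gstp2, Gstt1, Gstt3 and Gstk1, out of 55335 genes counted in whole kidneys of 24 adult mice. Control males (Ctrlm) and control females (Ctrlf) were Pex5lox/lox mice, and knockout males (cKOm) and females (cKOf) were their Pex5lox/lox/Pax8-rtTA/LC1 littermates, with 6 mice in each of the 4 groups. All 4 groups were on the C57BL/6J background, carried the floxed Pex5 allele and received doxycycline (DOX) for 2 weeks, beginning when they were 8 weeks old, with collection of the kidneys 4 weeks after DOX had ended. No transgene is named for the controls, so an effect of rtTA or Cre itself cannot be told apart from that of Pex5 loss. Pax8-rtTA drives the Cre of LC1 in the renal tubule, so cells outside the tubule were not targeted, and excision was described by the study as less complete in females, which bears on each comparison of the sexes. All 10 genes were found in the files and all passed the filter on low values, which kept any gene that reached 1 CPM, or counts per 1e+06 counted reads, in 1 kidney or more.

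GSTs join the thiol of glutathione to reactive, electrophilic compounds such as drug metabolites, epoxides and the aldehydes of oxidized lipids, and many also bind bile pigments, steroids and haem without changing them. The cytosolic enzymes fall into classes named by Greek letters, here alpha (Gsta), mu (Gstm), pi (Gstp) and theta (Gstt), whose genes lie in clusters that arose by duplication. The kappa enzyme Gstk1 belongs to another fold and is found in mitochondria and peroxisomes. Glutathione conjugates leave the cell through export pumps, and the proximal tubule trims them by gamma-glutamyl transferase, dipeptidases and N-acetylation to mercapturates that appear in urine. Many GST genes are known targets of NRF2, the regulator of the antioxidant response, and of nuclear receptors, and several are known to be expressed at different levels in male and female rodents. Pex5 is the receptor that brings most peroxisomal enzymes into the peroxisome.

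The gene counts of a kidney summed to between 19376152 and 28470831 reads. Pex5 itself, counted over all exons and all cells, was 49.0 to 62.7 CPM in Ctrlm and 41.8 to 47.2 CPM in cKOm kidneys, without overlap, and its log2 fold change was -0.31 in males (standard error, SE, 0.08, edgeR adjusted p = 0.0219). In females it was 42.9 to 61.7 CPM in Ctrlf and 38.0 to 48.5 CPM in cKOf kidneys (-0.21, SE 0.08, adjusted p = 0.177), and these 2 changes of Pex5 were not shown to differ (interaction -0.10, adjusted p = 0.754). The 10 markers of the proximal tubule summed to between 10333 and 13226 CPM in all 24 kidneys. A set of 12 liver transcripts, which includes albumin, stood apart in 5 male kidneys. Their score, the mean log2 CPM of the set, was above 4 in Ctrlm replicates 1 to 4 and in cKOm replicate 4, and was 0.36 to 2.51 in all other kidneys. The change of Pex5 in males did not pass with this score as a covariate (log2 fold change -0.32) or without the 5 kidneys (-0.26). The study itself reported Pex5 mRNA as reduced in kidneys of both sexes. It found almost no PEX5 protein in cKOm kidneys and a lower level in cKOf kidneys. By electron microscopy, it found proximal tubules of both sexes almost without peroxisomes. In whole kidneys, fewer cells of a type and less RNA per cell cannot be told apart.

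The 3 mu members lie on the minus strand of mouse chromosome 3 in GRCm38, with Gstm6 at chr3:107938847-107943749, Gstm2 at chr3:107981702-107986453 and Gstm1 at chr3:108012255-108017973. The pi genes Gstp1 (chr19:4035407-4037985) and Gstp2 (chr19:4040285-4046023) are neighbours on the minus strand of chromosome 19. Gsta4 (chr9:78182774-78209349, plus strand) and Gsta2 (chr9:78331018-78355788, minus strand) lie on chromosome 9, Gstt3 (chr10:75774115-75781414) and Gstt1 (chr10:75783813-75798584) on the minus strand of chromosome 10, and Gstk1 (chr6:42245935-42250447, plus strand) on chromosome 6. Reads were counted over exons of each gene. Because reads that align to more than 1 place were not counted, the sequence that members share decides how many of their reads could be counted.

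Among the members Gstp2 shared the most. The first 120 coding bases of Gstp1, Gstp2 and the third pi gene, Gstp3, are printed from the GRCm38 annotation of GENCODE, with capitals at each base that differs from Gstp1.
Gstp1: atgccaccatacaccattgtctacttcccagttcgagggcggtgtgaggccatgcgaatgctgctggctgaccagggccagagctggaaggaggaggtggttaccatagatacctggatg
Gstp2: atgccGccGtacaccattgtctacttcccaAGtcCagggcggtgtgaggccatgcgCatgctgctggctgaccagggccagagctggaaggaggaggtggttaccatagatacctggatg
Gstp3: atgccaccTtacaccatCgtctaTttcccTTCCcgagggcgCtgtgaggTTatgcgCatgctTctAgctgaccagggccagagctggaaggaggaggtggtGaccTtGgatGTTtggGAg
In this stretch Gstp2 differed from Gstp1 at 6 bases and Gstp3 at 21. Over the 633 coding bases, Gstp1 and Gstp2 differed at 12 (98.1% identity), and the capitals of the Gstp2 line all fall in its first part, after which both lines run on alike. Of all windows of 100 bases in Gstp2 transcripts, 46.9% also occurred in another gene, against 25.1% for Gstp1, so a large part of each transcript could give no read of its own at that length. With windows of 50 bases the shares were 54.3% and 33.7%. The read length is not given in the sources used here.

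For the mu class, the same stretch is shown for Gstm1, which fell in cKOm kidneys, for Gstm6, which rose, for Gstm2, which did neither, and for Gstm7 (chr3:107926334-107931817), a mu gene outside the 10 that rose. Capitals mark bases that differ from Gstm1.
Gstm1: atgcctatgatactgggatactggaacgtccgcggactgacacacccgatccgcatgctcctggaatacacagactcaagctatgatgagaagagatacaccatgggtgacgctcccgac
Gstm2: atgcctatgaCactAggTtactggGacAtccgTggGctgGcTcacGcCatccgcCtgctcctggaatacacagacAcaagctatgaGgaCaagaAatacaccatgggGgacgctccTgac
Gstm6: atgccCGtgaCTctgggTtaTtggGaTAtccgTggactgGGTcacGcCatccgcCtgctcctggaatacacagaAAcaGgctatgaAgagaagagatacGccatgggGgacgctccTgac
Gstm7: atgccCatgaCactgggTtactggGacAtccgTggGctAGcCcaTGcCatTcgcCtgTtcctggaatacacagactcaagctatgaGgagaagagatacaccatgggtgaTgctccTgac
The differences from Gstm1 numbered 18 in Gstm2, 23 in Gstm6 and 19 in Gstm7, and they were spread over the stretch. Over all 657 coding bases, Gstm1 was 82.8% identical to Gstm6, 82.6% to Gstm7 and 86.0% to Gstm2. Of the 100-base windows, 5.86% of those of Gstm1, 1.10% of those of Gstm6 and 0.36% of those of Gstm2 occurred in another gene. Those of Gstm7, Gsta4, Gstt1 and Gstk1 occurred in none. With 50-base windows the shares were higher, at 18.9% for Gstm1, 5.97% for Gstm6, 5.7% for Gstm2 and 0.53% for Gstm7. They stayed at 0 for Gsta4, Gstt1 and Gstk1. For Gsta2 the share was 28.4% at 100 bases and 49.8% at 50 bases, with Gsta1, Gm10639 and Gm3776 of the same cluster. For Gstt3 it was 10.8% at 100 bases, all with Gm20441, an overlapping gene model on the same strand (chr10:75771451-75780954). That model was at 0 counts in all 24 kidneys, so Gstt3 reads inside it may have been left out as ambiguous.

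In males, 5 of the 10 members had an edgeR adjusted p under 0.05 (quasi-likelihood test, adjusted over all genes of both sexes). Of all 16092 tested genes, 9.05% passed the same threshold. Gstm6 and Gsta4 rose, 2 of 10 where 4.14% of all genes rose, and Gstm1, Gstp1 and Gstp2 fell, 3 of 10 where 4.90% of all genes fell. The 6 cKOm values did not overlap the 6 Ctrlm values for Gstm1, Gstm6, Gsta4 and Gstp2, 4 of the 10, against 7.37% of all tested genes. Gstp2 passed the filter on low values only through Ctrlm, the group where it was high, and without it 4 of 9 members passed, 2 of them lower, and 3 did not overlap. The median log2 fold change of the members was -0.17, and that of all tested genes was 0.01. The study had itself displayed these genes and Gstt3 as changed in males of these samples. The members were chosen with earlier results of these data known. How many passed, did not overlap, rose or fell is therefore a description and not independent evidence.

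**Figure D1:**
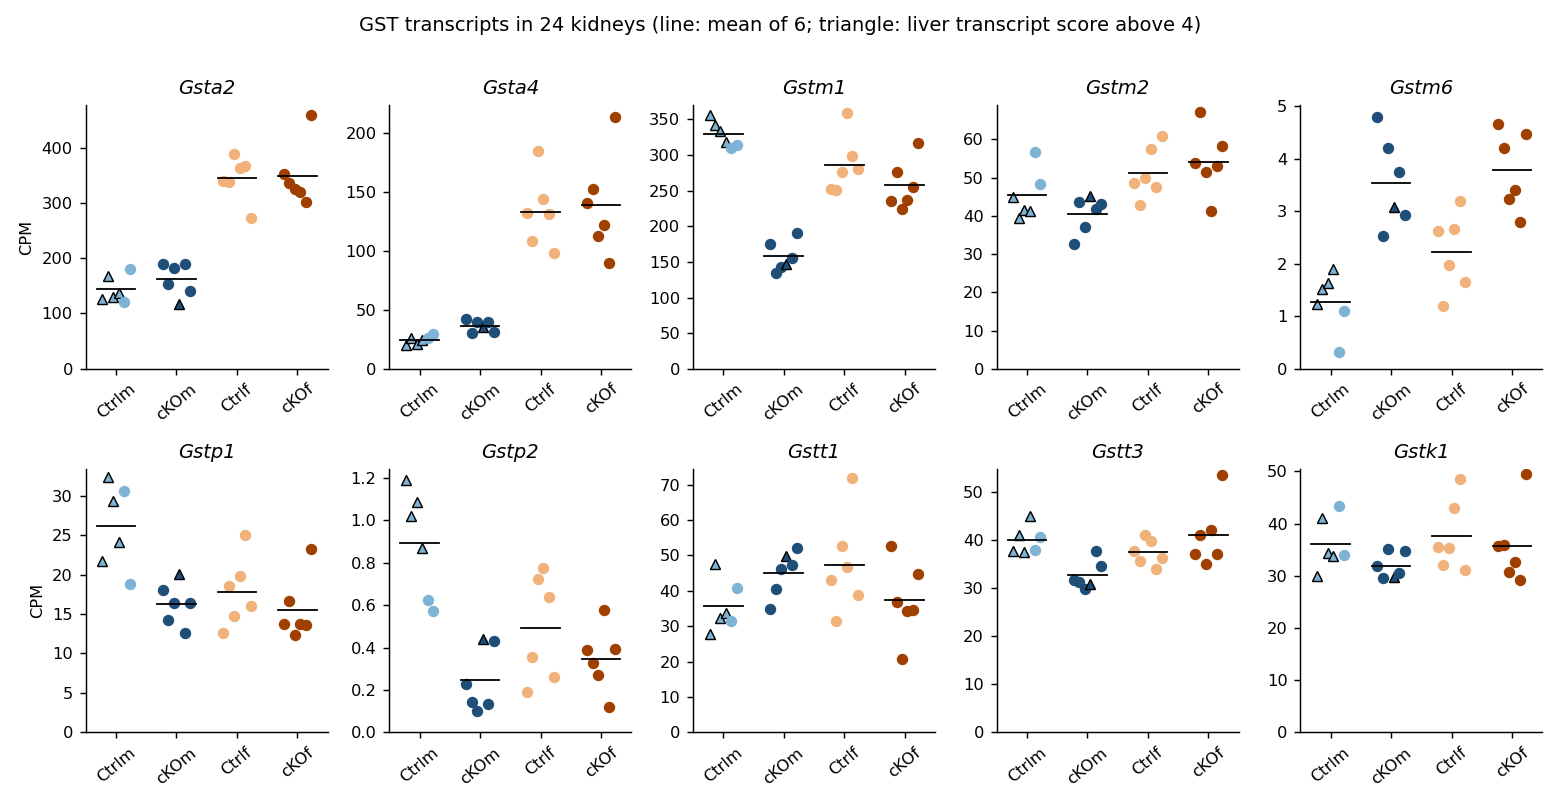
Each panel plots 1 GST member in CPM (y axis from 0) for each group of 6 kidneys, with a line at each mean and triangles for kidneys whose liver transcript score was above 4. The cKOm points of Gstm1 (134 to 191 CPM) lie below all other groups, Gsta2 and Gsta4 separate the sexes, and Gstp2 stays under 1.2 CPM throughout.

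Gstm1, the most abundant mu-class transcript of these kidneys, had the change that stood farthest outside its error. Its lowest, median and highest values were 310.2, 326 and 356 CPM in Ctrlm kidneys and 134, 152 and 191 CPM in cKOm kidneys. Every cKOm kidney was therefore below every Ctrlm kidney by a wide margin. The mean fell from 329 ± 18.1 to 158 ± 21.5 CPM (SD, n = 6 per group), a log2 fold change of -1.06 (SE 0.10, edgeR adjusted p = 3.86e-08). The two-sided exact permutation test of 6 against 6 kidneys gave p = 0.00216, the smallest value it can give. In Ctrlf kidneys Gstm1 ranged from 251 to 359 CPM with a median of 278, and in cKOf kidneys from 224 to 316 CPM with a median of 246. The female groups overlapped over most of their range (log2 fold change -0.15, SE 0.10, edgeR adjusted p = 0.489).

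By edgeR, Gstm1 was also the only member whose change differed between the sexes by a test of the difference itself. The change in males minus that in females was -0.91 on the log2 scale (SE 0.14, edgeR test of the interaction, adjusted p = 0.000229), where 2.31% of all tested genes passed that test. By their medians the order of the 4 groups was Ctrlm, Ctrlf, cKOf and cKOm, in which the first 3 overlapped their neighbours and cKOm stood below them all. The 4 Ctrlm kidneys with many liver transcripts were at 318 to 356 CPM and the other 2 at 310.2 and 314 CPM, and cKOm replicate 4, the cKOm kidney with many liver transcripts, was at 148 CPM, inside the range of the other 5.

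Gstm6, a mu-class gene of low level, moved the other way. It had 6 to 46 counts in Ctrlm kidneys and 53 to 105 counts in cKOm kidneys, or 0.31, 1.38 and 1.90 CPM (lowest, median, highest) against 2.53, 3.41 and 4.80 CPM. Again no cKOm kidney reached down to a Ctrlm kidney. Gstm6 rose, with a log2 fold change of 1.46 (SE 0.28, edgeR adjusted p = 0.00146, two-sided exact permutation p = 0.00216). Ctrlm replicate 5 was the lowest, with 6 counts. In females the values were 1.19, 2.30 and 3.19 CPM in Ctrlf and 2.79, 3.80 and 4.67 CPM in cKOf kidneys. These female groups touched only between 2.79 and 3.19 CPM. The change in females, 0.77 on the log2 scale (SE 0.27), did not pass the threshold over all genes (edgeR adjusted p = 0.119), although the single two-sided exact permutation test gave p = 0.00433. The male and female changes of Gstm6 were not shown to differ (interaction 0.69, SE 0.39, edgeR adjusted p = 0.463).

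Gstm2, the closest relative of Gstm6 among the members at 86.0% coding identity, did not pass the edgeR test in either sex. It ranged from 39.5 to 56.6 CPM in Ctrlm and from 32.5 to 45.2 CPM in cKOm kidneys (log2 fold change -0.16, SE 0.11, edgeR adjusted p = 0.53). In females it ranged from 42.9 to 60.7 and from 41.3 to 67.2 CPM, so all 4 groups overlapped. Of the 3 mu members, which lie in the same cluster on chromosome 3, 1 thus fell and 1 rose in males.

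Gstp1, the pi-class enzyme, was at 18.8, 26.8 and 32.4 CPM (lowest, median, highest) in Ctrlm and at 12.6, 16.4 and 20.1 CPM in cKOm kidneys. The groups overlapped by 1 kidney on each side, Ctrlm replicate 6 and cKOm replicate 4. The log2 fold change was -0.69 (SE 0.17, edgeR adjusted p = 0.0118, two-sided exact permutation p = 0.00433). Ctrlf kidneys, at 12.6 to 25.0 CPM, and cKOf kidneys, at 12.4 to 23.2 CPM, covered nearly the same range (log2 fold change -0.20, SE 0.17, edgeR adjusted p = 0.643). Gstp1 was thus at its highest in Ctrlm kidneys, while cKOm kidneys were in the range of both female groups.

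Gstp2, its near copy, was counted at very low numbers. It had 12 to 31 counts in Ctrlm and 2 to 11 in cKOm kidneys, and 4 to 20 and 3 to 11 counts in Ctrlf and cKOf kidneys. It reached 1 CPM in 3 Ctrlm kidneys and in no other, so it passed the filter only through the group where it was high, and in cKOm kidneys it went down to 2 counts, under the floor of 3. In CPM the Ctrlm values were 0.57, 0.95 and 1.19 (lowest, median, highest) and the cKOm values 0.10, 0.19 and 0.44. The log2 fold change was -1.83 (SE 0.44, edgeR adjusted p = 0.0115) and the two-sided exact permutation test gave p = 0.00216. Because of the filter these 2 p-values are a description, and in a fit that left out no gene above 0 counts the change was -1.86 (SE 0.48, edgeR adjusted p = 0.0270). In females it was -0.52 (SE 0.44, edgeR adjusted p = 0.643). Gstp3, the third pi gene, was below the filter in every kidney, with 6 to 14 counts in Ctrlm and 2 to 7 in cKOm kidneys, against 3 to 7 and 1 to 6 in the female groups.

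Gstp2 was highest in the male kidneys with many liver transcripts, though among cKOm kidneys by little. The 4 Ctrlm kidneys with a liver score above 4 had 0.87 to 1.19 CPM of Gstp2 and the other 2 had 0.57 and 0.63, and among cKOm kidneys Gstp2 was highest, at 0.44 CPM, in the 1 kidney above 4, with 0.10 to 0.43 in the other 5. For Gstp1 the 4 Ctrlm kidneys were at 21.7 to 32.4 CPM and the other 2 at 18.8 and 30.7 CPM. With the score as a covariate in the fit, 5.41% of all tested genes passed in males and 2 of the 10 members did, Gstm1 (log2 fold change -1.01, edgeR adjusted p = 3.18e-06) and Gstm6 (1.56, adjusted p = 0.0107). In the same fit Gstp1 was at -0.53 (adjusted p = 0.162), Gstp2 at -1.55 (adjusted p = 0.127) and Gsta4 at 0.48 (adjusted p = 0.226), each in the same direction as before. Without the 5 kidneys, an alternative chosen after the data were seen that leaves 2 Ctrlm and 5 cKOm kidneys, 3.75% of all tested genes passed, and Gstm1 (-0.998, edgeR adjusted p = 0.000355) and Gstm6 (2.32, adjusted p = 0.00533) again did. Gstp1 was then at -0.71 (adjusted p = 0.167) and Gsta4 at 0.36 (adjusted p = 0.609), and Gstp2 no longer reached 1 CPM in any kidney. The part of liver transcripts in the values of Gstp1, Gstp2 and Gsta4 was not tested beyond these fits.

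**Figure D2:**
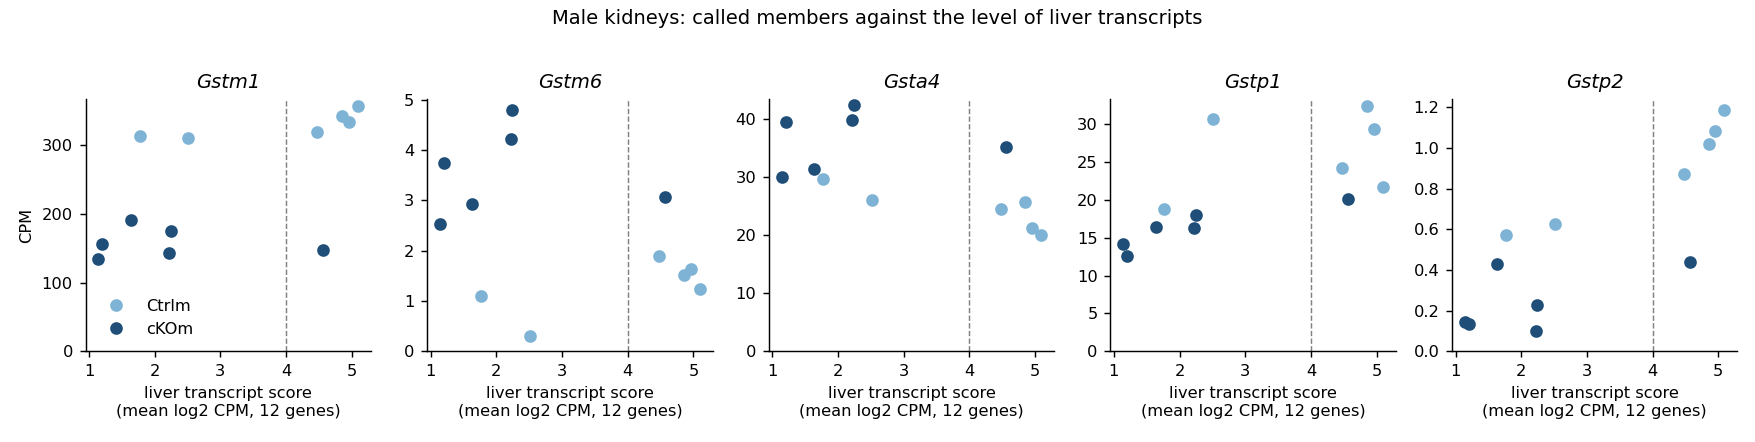
The 5 members called in males are plotted in CPM (y axis from 0) against the liver transcript score (x axis, mean log2 CPM of 12 liver genes) for the 12 male kidneys, with a dashed line at 4. Ctrlm and cKOm kidneys do not overlap on either side of the line for any of the 5, with 1 cKOm kidney above 4 and 2 Ctrlm kidneys below it, and the highest Gstp2 values, 0.87 to 1.19 CPM, belong to the 4 Ctrlm kidneys to its right.

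Among the alpha members, Gsta4 clears 4-hydroxynonenal, an aldehyde of oxidized lipids. Its values were 20.004, 25.2 and 29.7 CPM (lowest, median, highest) in Ctrlm and 30.1, 37.5 and 42.5 CPM in cKOm kidneys. The groups did not overlap, but by a small gap. The log2 fold change was 0.57 (SE 0.16, edgeR adjusted p = 0.0403, two-sided exact permutation p = 0.00216), close to the threshold, and it did not pass with limma-voom (adjusted p = 0.0652) or with the replicate number as a block (adjusted p = 0.0756). Gsta2, an alpha enzyme with broad activity towards peroxides, was at 122 to 181 CPM in Ctrlm and 116 to 189 CPM in cKOm kidneys, which overlapped almost entirely (log2 fold change 0.17, SE 0.12, edgeR adjusted p = 0.584). In females neither alpha member passed, with log2 fold changes of 0.06 for Gsta4 (adjusted p = 0.92) and 0.02 for Gsta2 (adjusted p = 0.97).

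No theta or kappa member passed the edgeR test in males. Gstt1, which acts on small halogenated compounds, was at 27.9 to 47.7 CPM in Ctrlm and 34.7 to 52.2 CPM in cKOm kidneys (log2 fold change 0.34, SE 0.18, edgeR adjusted p = 0.389), while in females it was at 31.3 to 71.9 and 20.6 to 52.6 CPM (log2 fold change -0.35, SE 0.18, adjusted p = 0.363). The difference between these changes of opposite sign did not pass the test of the interaction (0.69, SE 0.26, edgeR adjusted p = 0.204). Gstt3 was at 37.6 to 45.1 CPM in Ctrlm and 29.9 to 37.9 CPM in cKOm kidneys, so that the highest cKOm kidney just exceeded the lowest Ctrlm kidney. Its log2 fold change of -0.29 (SE 0.09) had an edgeR adjusted p of 0.0581 and a two-sided exact permutation p of 0.00649, and it passed with DESeq2 (adjusted p = 0.0211). Gstk1, the member found in peroxisomes, was at 30.1 to 43.5 CPM in Ctrlm and 29.5 to 35.2 CPM in cKOm kidneys, and at 31.1 to 48.5 and 29.2 to 49.5 CPM in Ctrlf and cKOf kidneys. Its log2 fold change was -0.18 in males (SE 0.12, edgeR adjusted p = 0.534) and -0.08 in females (SE 0.12, adjusted p = 0.836), so no change of Gstk1 mRNA was detectable against this spread.

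In females, 0 of the 10 members passed with edgeR, limma-voom or DESeq2, where 0.851% of all tested genes passed with edgeR. At an unadjusted p under 0.05 there was 1, Gstm6. For 0 of the 10 members the 6 cKOf values lay apart from the 6 Ctrlf values, which held for 0.559% of all tested genes. The median log2 fold change of the members in females was -0.03. A single kidney, cKOf replicate 6, was the highest of its group for 6 of the 10 members, Gsta2, Gsta4, Gstm1, Gstp1, Gstt3 and Gstk1. Without it the female log2 fold changes of Gsta2 and Gsta4 turned from 0.02 and 0.06 to -0.08 and -0.11.

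**Figure D3:**
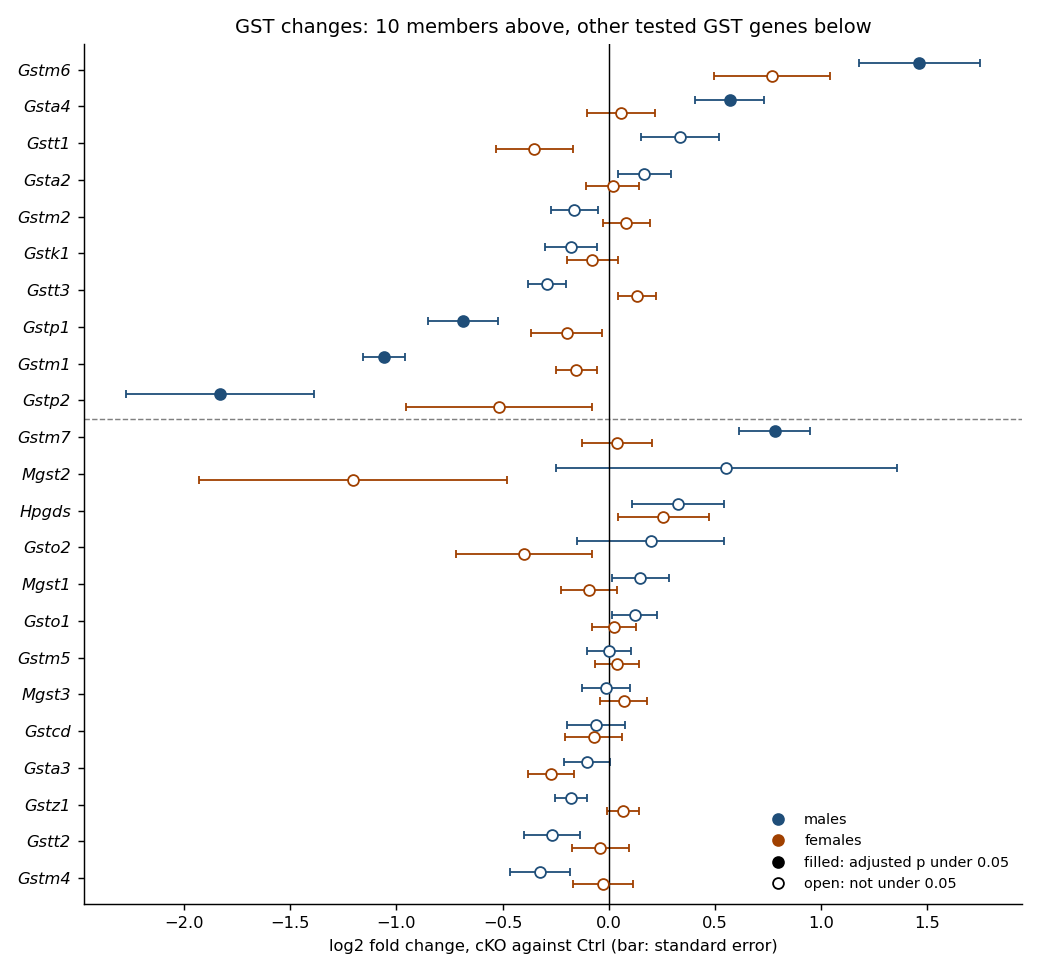
Log2 fold changes of cKO against Ctrl (x axis, bars of 1 SE) are shown for males and females, for the 10 members above the dashed line and the 13 other tested GST genes below it. Filled points passed an edgeR adjusted p of 0.05, which in males holds for Gstm6, Gsta4, Gstp1, Gstm1 and Gstp2 and below the line for Gstm7, and in females for none of the 23 genes.

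Some members also differed between the sexes in control kidneys. Between control males and control females, 3 of the 10 members passed, where 15.7% of all tested genes did, and 2 of the 10 did not overlap, where 7.34% of all tested genes did not. Gsta4 was at 98.6 to 185 CPM (median 132) in Ctrlf kidneys, all above the highest Ctrlm kidney at 29.7 CPM, and the log2 difference of Ctrlm from Ctrlf was -2.44 (SE 0.17, edgeR adjusted p = 2.36e-11). Gsta2 was at 272 to 388 CPM (median 352) in Ctrlf kidneys, with a log2 difference of -1.26 (SE 0.13, edgeR adjusted p = 2.98e-08). Gstp1 was the member higher in males (0.56, SE 0.17, edgeR adjusted p = 0.0251), and it did not pass with the liver score as a covariate. Among the members, the alpha genes were thus those higher in females.

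Between cKOm and cKOf kidneys 5 of the 10 members passed, all lower in males, where 9.72% of all tested genes passed. Gsta4 (log2 difference of cKOm from cKOf -1.93, edgeR adjusted p = 1.7e-09) and Gsta2 (-1.11, adjusted p = 2.54e-07) remained lower in males, and Gstm1 (-0.70, SE 0.10, edgeR adjusted p = 6.67e-06), which had been 0.20 (adjusted p = 0.194) between the controls, joined them. Gstm2 was at -0.42 (edgeR adjusted p = 0.0104) and Gstt3 at -0.33 (adjusted p = 0.0141). These comparisons share their kidneys with the comparisons of genotype. In the order of the 4 groups, Gsta4 is the only member in which both Ctrlm and cKOm kidneys stood apart from their neighbours, with cKOf and Ctrlf overlapping at the top. For Gstm2, Gstm6, Gstp1, Gstp2, Gstt1, Gstt3 and Gstk1 every group overlapped its neighbour in that order.

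To set the genes against each other, CPM was divided by the length of each gene's exons. On this scale of CPM per kb, Gstm1 was the most abundant member in Ctrlm kidneys at 223 ± 12.3 (SD, n = 6), followed by Gsta2 at 123 ± 20.6. In cKOm kidneys the order of the means was turned, with Gsta2 at 138 ± 25.6 and Gstm1 at 107 ± 14.6. Both genes were measured in the same kidneys, and their difference was not tested. Levels per length were not corrected for windows shared with other genes, at 100 bases 28.4% for Gsta2 and 5.86% for Gstm1. In both female groups Gsta2 led, at 293 ± 34.0 in Ctrlf and 297 ± 48.2 in cKOf kidneys, ahead of Gstm1 at 194 ± 27.02 and 175 ± 23.2 and Gsta4 at 105 ± 23.97 and 109 ± 33.8. Gstm2, Gstt1, Gstk1, Gsta4 and Gstp1 lay between 10.5 and 29.5 CPM per kb in both male groups, Gstt3 was at 10.4 and 8.52 CPM per kb, and Gstm6 and Gstp2 were under 2.

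Summed over all 27 GST genes found, the level was 724 to 824 CPM per kb in Ctrlm and 614 to 694 in cKOm kidneys, which did not overlap, against 897 to 1120 in Ctrlf and 898 to 1342 in cKOf kidneys. The share of Gstm1 in this sum was 29.2% ± 2.27 in Ctrlm and 16.3% ± 1.98 in cKOm kidneys (SD, n = 6), and in females 18.9% ± 2.04 in Ctrlf and 17.4% ± 1.30 in cKOf kidneys. The share of Gsta2 was 15.96% ± 2.34, 20.8% ± 3.04, 28.5% ± 1.69 and 29.4% ± 0.98 in the same groups, and that of Gsta4 was 2.53% ± 0.33, 4.38% ± 0.45, 10.2% ± 1.59 and 10.7% ± 1.67. In cKOm kidneys the mean shares of Gsta2 and Gsta4 lay between those of Ctrlm and of female kidneys, and that of Gstm1 was below both female groups. A share also moves with the rest of the sum. In males the mean sum went from 766 to 657 CPM per kb and Gstm1 alone from 223 to 107. The level of Gsta2 itself did not pass in males (log2 fold change 0.17, edgeR adjusted p = 0.584). These shares are a description without a test.

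**Figure D4:**
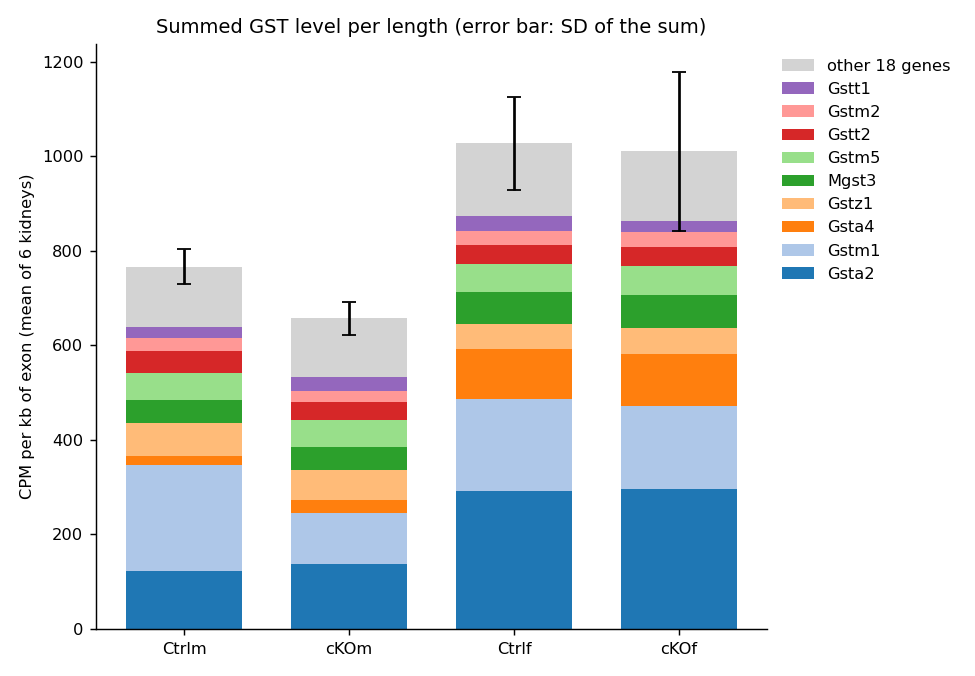
Stacked bars show the mean level per length (CPM per kb of exon, axis from 0) of all 27 GST genes in the 4 groups, with the 9 largest named and an error bar of 1 SD of the sum over 6 kidneys. The Gstm1 block shrinks from 223 in Ctrlm to 107 in cKOm kidneys, and the Gsta2 and Gsta4 blocks are largest in both female groups.

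Of the other 17 GST genes found, 13 were tested and 1 passed in males, Gstm7, where 9.05% of all tested genes did, with 0 in females by edgeR, limma-voom or DESeq2 (1 by edgeR at an unadjusted p under 0.05). Gstm7, next to Gstm6 on chromosome 3, rose from 13.4 ± 2.41 to 23.01 ± 4.61 CPM in males (log2 fold change 0.78, SE 0.17, edgeR adjusted p = 0.00347), without overlap between 9.96 to 16.04 CPM in Ctrlm and 17.8 to 29.5 CPM in cKOm kidneys. In females it was at 17.03 ± 4.37 and 17.5 ± 3.60 CPM, and the interaction did not pass (0.74, SE 0.23, edgeR adjusted p = 0.101). With the liver score as a covariate the male change of Gstm7 was 1.07 (adjusted p = 0.000203). Of the tested mu genes Gstm1 fell, Gstm6 and Gstm7 rose, and Gstm2, Gstm4 and Gstm5 did not pass.

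None of the remaining 12 passed in males, and the following are their log2 fold changes. Gstm5 was at -0.00088 (SE 0.10), Mgst3 at -0.01 (0.11), Gstcd at -0.06 (0.14), Gsta3, the alpha enzyme that also serves steroid synthesis, at -0.10 (0.11), Gsto1 at 0.12 (0.11), Mgst1 at 0.15 (0.13) and Gstz1, the maleylacetoacetate isomerase of tyrosine breakdown, at -0.18 (0.08). Gsto2 (0.20, SE 0.35), Gstt2 (-0.27, 0.13), Gstm4 (-0.33, 0.14), Hpgds, the prostaglandin D synthase (0.33, 0.22), and Mgst2 (0.55, 0.80) were farther from 0, and their edgeR adjusted p lay between 0.239 and 0.858. Mgst2 reached 1 CPM in 1 Ctrlf kidney only. Gsta1, Gstm3, Gstp3 and Gstt4 were below the filter in all kidneys.

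Of the alpha cluster, 2 further genes share windows with Gsta2 and were added after their values were seen. Gm3776 had a median of 0 counts in each group, at most 14 in any kidney, and was not tested. Gm10639 (chr9:78289923-78305525) was at 2.89 ± 0.93 CPM in Ctrlm and 5.32 ± 1.43 in cKOm kidneys, and at 24.5 ± 6.05 and 39.5 ± 10.98 CPM in Ctrlf and cKOf kidneys (SD, n = 6). It passed in males (log2 fold change 0.88, SE 0.23, edgeR adjusted p = 0.0222) and in females (0.69, SE 0.20, adjusted p = 0.0413), with overlap of the groups in both. It did not pass in males with limma-voom (adjusted p = 0.186) or with the liver score as a covariate (adjusted p = 0.163), nor in females with the latter (adjusted p = 0.0636). Like Gsta2 and Gsta4, it was higher in females.

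The antioxidant response element, the site of NRF2, was looked for by its core TGACNNNGC on both strands in the RefSeq promoter windows of GRCm38.p6, which run from 250 bases before to 50 bases after the start of a gene. Windows were found for 9 of the 10 members, all but Gsta4, and the core was in 0 of them, while it was in the windows of 13.99% of all genes. Windows were also sought for the other 17 GST genes together with the neighbours Gm10639 and Gm3776. Of the 18 of these with a window, 4 held the core (22.2%), Gsta3, Gstm5, Mgst1 and Gstm7, of which 1, Gstm7, passed in males. In Gstm7, shown as the gene that passed, it lies at chr3:107931725-107931753 in the stretch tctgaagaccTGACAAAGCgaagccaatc, read along the gene with the core in capitals. The core begins at -129 from the RefSeq start of Gstm7. The stretch lies inside the GENCODE span of Gstm7 given above, so the RefSeq and GENCODE starts differ. No match says only that these letters are not in this window.

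By the root mean square difference of log2 CPM, centred on each gene's mean over the 24 kidneys, the tested genes most like Gstm1 were Tmem189 (difference 0.20) and Mfsd4b1 (0.21), which had log2 fold changes of -0.71 and -0.67 in males and -0.12 and -0.07 in females. Nearest to Gsta4 were Pcolce2 (0.43) and Cdh6 (0.44), nearest to Gstm6 were Trpm3 (0.45) and Nkain1 (0.46), and nearest to Gstp2 were Susd2 (0.50) and Slc22a18 (0.51). The distance to the nearest gene was thus smallest for Gstm1 among these 4 members.

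Beside the GSTs, genes that make and recycle glutathione fell or did not pass in males. Of 16 tested supply genes, 0 rose and 8 fell in males (median log2 fold change -0.30, against 0.01 for all tested genes, of which 4.90% fell), among them Cbs, which feeds homocysteine into cysteine (182 to 87.6 CPM, log2 fold change -1.06, SE 0.18, edgeR adjusted p = 0.000214), Ggct, of the gamma-glutamyl cycle (-0.94, SE 0.15), Gsr, the glutathione reductase (-0.60, SE 0.09), and the mitochondrial glutathione carrier Slc25a39 (-0.50, SE 0.10). In females 0 of the 16 passed with edgeR or limma-voom (5 by edgeR at an unadjusted p under 0.05) and 2 with DESeq2. With the liver score as a covariate 7 fell, and 4 fell without the 5 kidneys of high score. In these fits 5.41% and 3.75% of all tested genes passed in males, which holds for the lists below as well. All these lists were also chosen with earlier results of these data known, so their counts are a description.

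Of 18 tested genes of the mercapturate route, 3 rose and 7 fell in males, where 4.14% of all tested genes rose and 4.90% fell, and 1 passed in females, where 0.851% did, Nat8f2 (named after its values were seen), of the family of the N-acetyltransferase of cysteine conjugates (0.79 in males and 0.66 in females, adjusted p = 0.00181 and 0.0131). The largest falls of this list were in Acy3, the aminoacylase that deacetylates mercapturates (2164 ± 507 to 702 ± 105 CPM, log2 fold change -1.62, SE 0.14, edgeR adjusted p = 1.11e-08), Cndp2, a dipeptidase that splits cysteinylglycine (-1.57, SE 0.12), Ggt1, the gamma-glutamyl transferase of the brush border (-1.12, SE 0.12), and Acy1 (-1.08, SE 0.13). All 4 also differed between the sexes in their change when the interaction was tested with edgeR (9.79e-06 to 0.00291 after adjustment). Of 11 tested glutathione peroxidases, glutaredoxins and relatives, 0 rose and 2 fell in males, against 4.90% of all tested genes, Gpx1 (-0.57, SE 0.11, adjusted p = 0.00167) and Gpx4 (-0.44, SE 0.13, adjusted p = 0.0479). Of the 11, 1 fell with limma-voom, with the replicate block, with the liver score as a covariate and without the 5 kidneys of high score. Of the mercapturate list 3 rose and 7 fell with the covariate, and 1 rose and 7 fell without the 5 kidneys.

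Of 10 tested genes of conjugate export, 2 rose and 1 fell in males, where 4.14% of all tested genes rose and 4.90% fell. The 2 that rose were export pumps, and the 1 that fell was an organic anion transporter. Both with the liver covariate and without the 5 kidneys, 1 gene of the list rose and 1 fell. Abcc3, a pump for glutathione and glucuronide conjugates of the basolateral side, rose from 3.85 ± 1.01 to 15.6 ± 3.30 CPM in males (log2 fold change 2.02, SE 0.20, edgeR adjusted p = 7.56e-08) and was at 137 ± 31.9 and 103 ± 23.7 CPM in Ctrlf and cKOf kidneys. Abcc4 rose as well (0.71, SE 0.17, adjusted p = 0.00854), and the organic anion transporter Slc22a6 fell (-0.65, SE 0.11, adjusted p = 0.000418). The changes of Abcc3 and Abcc4 differed between the sexes (interaction 2.43 and 0.96, edgeR adjusted p = 1.73e-06 and 0.0209).

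Of 20 tested genes of aldehyde removal, 3 rose and 7 fell in males, and 2 rose in females, against 4.14%, 4.90% and, in either direction in females, 0.851% of all tested genes. With the liver covariate 3 rose and 5 fell in males, and without the 5 kidneys 2 rose and 4 fell. The retinal dehydrogenase Aldh1a1 rose in both sexes, from 9.75 ± 3.25 to 40.8 ± 8.76 CPM in males (log2 fold change 2.07, SE 0.17, edgeR adjusted p = 6.23e-09) and from 22.5 ± 4.05 to 45.3 ± 6.53 CPM in females (1.01, SE 0.16, adjusted p = 0.00016). Its close relative Aldh1a7 did so too (1.73 and 0.76, adjusted p = 1.12e-06 and 0.0185), but its female change did not pass when adjusted within females alone. Adh1 (-1.08) and Akr1a1 (-0.58) fell in males. Of 22 tested NRF2 targets, 3 rose and 8 fell in males, where 4.14% of all tested genes rose and 4.90% fell. Among them Me1 (-0.73), Prdx1 (-0.70) and Txn1 (-0.67) were down and Abcc4 was up. With the liver score as a covariate 1 rose and 4 fell, where 5.41% of all tested genes passed. Without the 5 kidneys 0 rose and 3 fell, where 3.75% of all tested genes passed. Of 13 tested regulators, 1 passed in males, where 9.05% of all tested genes did. It was the xenobiotic receptor Nr1i2, which rose (0.73, SE 0.13, edgeR adjusted p = 0.000323) and was at 0.0017 in females (adjusted p = 0.999), and which did not pass in males without the 5 kidneys.

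**Figure D5:**
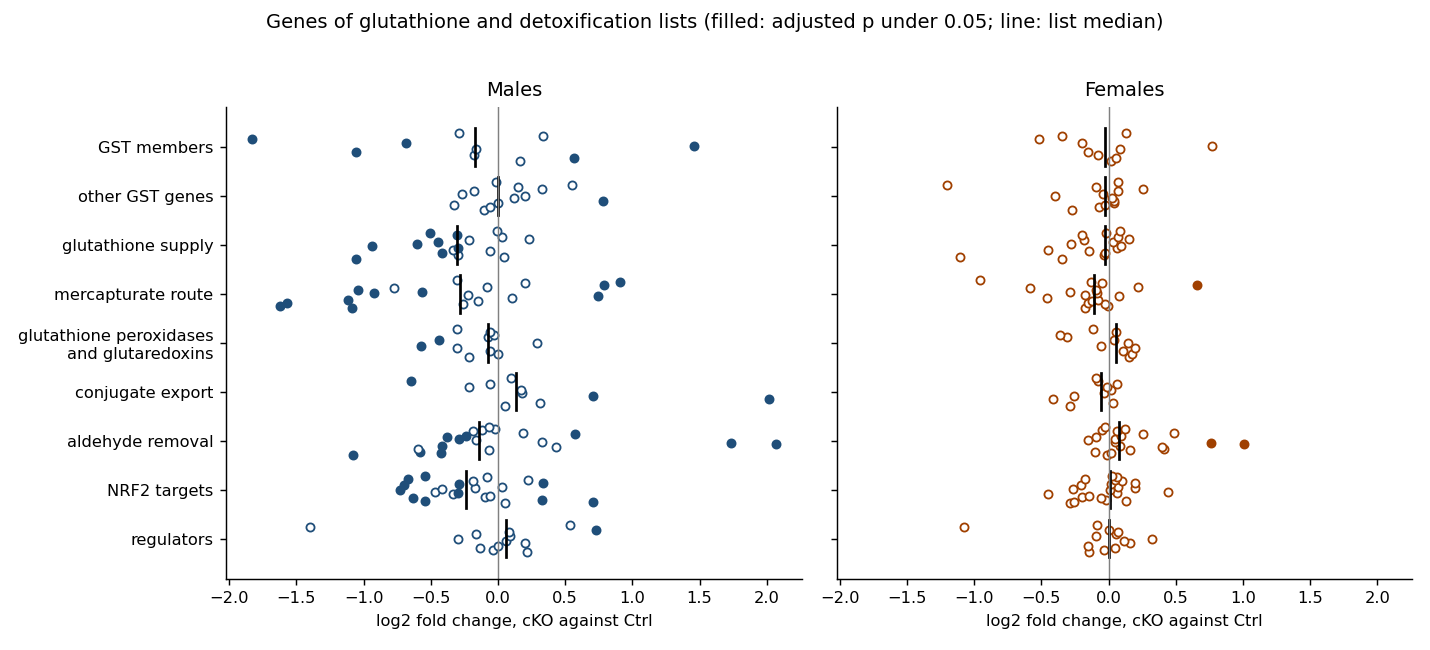
Log2 fold changes of cKO against Ctrl (x axis) are plotted for each tested gene of the GST members, other GST genes and 7 related lists, in males on the left and females on the right, with filled points for an edgeR adjusted p under 0.05 and a black line at each list median. In males all filled points of glutathione supply (8 of 16) lie below 0, and in females 3 genes are filled, Aldh1a1, Aldh1a7 and Nat8f2.

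Markers of cell types were counted in the same way, and those named here were chosen after their values were seen. Of all tested genes, 4.14% rose and 4.90% fell in males, and 0.851% passed in females. Summed levels of the 12 liver markers were 108 to 989 CPM in Ctrlm and 105 to 495 in cKOm kidneys, and 58.1 to 127 and 52.0 to 124 CPM in Ctrlf and cKOf kidneys, no marker was at 0, and 1 rose and 4 fell in males. Of 10 proximal tubule markers, 4 fell in males, Slc22a6 (-0.65), Aqp1 (-0.38), Slc34a1 (-0.33) and Lrp2 (-0.33), and the summed level of all 10 was 11598 to 12923 CPM in Ctrlm and 10333 to 11447 CPM in cKOm kidneys, without overlap. The other 6 did not pass, with Slc5a12 at 0.63 (adjusted p = 0.0512), Hnf4a at 0.20, Slc4a4 at 0.13, Slc5a2 at 0.10, Miox at 0.04 and Cubn at -0.17. With limma-voom and with DESeq2, 1 of the 10 rose and 4 fell. With the liver covariate 2 of the 10 fell, and without the 5 kidneys 1 did, where 5.41% and 3.75% of all tested genes passed. In males 1 of 6 thick limb markers rose, Slc12a1 (0.33), with a list median of 0.07. Of 7 collecting duct markers 1 rose, Slc26a4 (0.47), and 1 fell, Slc4a1 (-0.68), with a median of 0.09. Of 6 tested immune markers 1 fell, the macrophage receptor Csf1r (-0.34), with a median of -0.34. No other marker of these 3 lists passed in males. With the liver covariate neither the thick limb nor the immune marker passed, and without the 5 kidneys 1 of these 3 lists held a call, a collecting duct marker that fell. Among 5 distal, 5 podocyte, 6 endothelial, 6 stromal and 5 adipose markers, 0 passed in males with edgeR or limma-voom, with 2, 1, 2, 3 and 0 of them at an unadjusted p under 0.05, and DESeq2 called 1 endothelial marker. In females Slc4a1 (-0.70, edgeR adjusted p = 0.00172) was the 1 marker of all these lists that passed. Their part in the GST values was not tested.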

How the data were processed

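RNA-seq of whole kidneys was taken from 24 mice, 6 in each of 4 groups. Per the labels and the methods of the study, the authors prepared stranded mRNA libraries, trimmed reads with cutadapt 1.8, aligned them to GRCm38 with STAR 2.5.3a and counted them per gene with HTSeq 0.9.1, and the deposited values are raw counts per gene and kidney. The strand setting of the counting is not given in the sources used here. The 5 lines that name no gene, with 34.0% to 41.5% of the reads of a kidney, were left out of library sizes.

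Genes with 1 CPM in at least 1 kidney (16092) were fitted over all 4 groups with edgeR 4.0.16 (R 4.3.3, TMM, quasi-likelihood, prior count 2), where the study used limma-voom, and p-values were Benjamini-Hochberg adjusted over both sexes together, with a threshold of 0.05. CPM values use TMM library sizes. The 20 single-gene tests of the members were two-sided exact permutation tests over 924 arrangements, unadjusted. On simulated counts the male comparison recovered 180 and the female comparison 178 of 200 changed genes, with 4 and 8 false calls among 16075 genes. Each changed gene was given a log2 change of size 1, and all genes the same dispersion. Recovery of smaller changes, such as most of those of the members, was not simulated. A count of 3, the floor for detection, was 0.105 to 0.155 CPM, for counting error only. Alternatives were limma-voom 3.58.1, DESeq2 1.42.0, RLE scaling, 2 other filters, separate fits, adjustment within comparisons, a replicate block, the liver score as covariate and leaving out each kidney. The members and lists were chosen with earlier results of these data known. Named were the members, the other tested GST genes, Pex5, the called genes of each related list (the 4 of largest change in males where more passed), and the 2 genes nearest to each member without overlap. Any other gene was chosen after its values were seen. Replicates are different mice, and replicates of a group differed by more than sampling noise (chi-square per degree of freedom 9.53 to 94.9 in 60 pairs). Replicate numbers were not found to pair the mice. Sequences came from GENCODE and RefSeq annotations of GRCm38, with 9 of 10 members matched to a promoter.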

Additional observations from a re-analysis of the deposited data

Results flagged for a closer look

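Among the 40 groups of 6 kidneys (10 members in 4 groups), 2 had a kidney far from the others by Dixon's test, where chance gives about 1 in 20, and both concerned cKOf replicate 6. Gsta2 was at 459.5 CPM in that kidney, with a gap to the next kidney of 0.677 of the group's range. Gstk1 was at 49.5 CPM there, with a gap of 0.669 of the range.

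The change of Gstm1 in males minus that in females was -0.91 on the log2 scale, and this difference passed the edgeR test of the interaction (adjusted p = 0.000229).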

How the results depend on the processing

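In males 5 members passed. With the liver transcript score as a covariate 2 did, and with the 5 kidneys above 4 left out, which was chosen after the data were seen, 2 did (Gstm1 and Gstm6 in both). The other alternatives gave 4 to 6, and leaving out each kidney in turn 4 to 6. Gstm1 and Gstm6 passed in males in every alternative run. Gsta4 lost its call in 11 of 24 leave-outs (Ctrlm replicates 1 to 5, cKOm replicates 1, 3, 4 and 5, Ctrlf replicates 4 and 5; adjusted p from 0.0123 to 0.104 over all) and with RLE scaling (0.0516) or a filter of 1 CPM in 6 kidneys (0.0529). Gstp2 did not pass that filter. Gstt3 passed in males with 5 of the alternatives, DESeq2 among them (0.0211), and in 4 leave-outs (cKOm replicate 5, Ctrlf replicates 4 and 5, cKOf replicate 6). The causes were not tested.

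In females 0 members passed in each alternative, and leaving out 1 kidney gave 0 to 1, with Gstm6 passing without Ctrlm replicate 5 (adjusted p = 0.0465). The interaction passed for 1 member, for 2 with DESeq2 (Gstt3 added), and for 1 to 2 with a kidney left out, 2 without cKOm replicate 5. The uncalled female changes of Gsta2 (-0.076 to 0.057), Gsta4 (-0.11 to 0.17) and Gstk1 (-0.19 to 0.014) changed sign when 1 kidney was left out. Sexes differed for 2 to 4 members in controls and 4 to 5 in cKO kidneys.

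Equal replicate numbers belonged to different mice (correlations of deviations -0.199 to 0.118, 1 of 12 pairs over 0.1). With the replicate block 4 members passed in males, Gsta4 being lost, and no other call of a member changed. Over all genes, adjusting within females gave 43 calls in place of 137. Of the genes named above as passing in females, Gm10639, Aldh1a7 and Nat8f2 did not pass when adjusted in this way. Levels per length over the longest transcript were higher, for Gstp1 31.9 in place of 16.9 CPM per kb in Ctrlm kidneys. Members of few counts, Gstp2 and Gstm6, are limited by depth.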
